A study of Mus musculus with 20 samples.

Results

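The Rhox genes (reproductive homeobox on the X) encode small homeodomain transcription factors that lie together in 1 cluster on the mouse X chromosome, and 3 of them, Rhox5, Rhox6 and Rhox9, are described here over 20 microarrays of germ cell induction from mouse embryonic stem cells. They were chosen by gene symbol among 18193 genes with 1 platform symbol on the array, by a rule that takes every probe set (a group of probes read as 1 value) for these symbols, and each gene had exactly 1. The genes were proposed with the values of all 20 arrays already known, so their levels and differences are given as a description, with no p-value. All 3 passed the filter on dim probe sets, a highest group mean of at least 3.95 on the log2 scale, and belong to the 14010 genes that were tested. The reference table (GRCm38.p6) lists 33 protein-coding Rhox genes, and 4 Rhox genes had a probe set with a single symbol, the fourth being Rhox13.

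Rhox5, first known as Pem, is made in the placenta and extraembryonic endoderm, in embryonic stem cells and, under androgen control, in Sertoli cells of the testis. Rhox6 and Rhox9, also known as Psx1 and Psx2, are a closely related pair made in the placenta and in the embryonic gonad, germ cells included. In the embryo proper the cluster is silenced around implantation, when DNA methylation is laid down over it by the de novo enzymes Dnmt3a and Dnmt3b with help from histone H3 lysine 9 methylation. Primordial germ cells later lose most of their DNA methylation.

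The study crossed 5 male cell lines (strain C57BL/6;129 per the labels) with 2 stages, with 2 arrays in each of the 10 groups. The parental line carries reporters for Blimp1 (mVenus) and stella (ECFP) and the doxycycline-responsive activator rtTA at Rosa26, and so do all the other lines. The B, P14 and A lines carry in addition tagged Blimp1 (Avi), Prdm14 (3xFLAG) or Tfap2c (V5) under a tetO and minimal CMV promoter in a piggyBac vector, and the BP14A line carries all 3 transgenes. EpiLCs, epiblast-like cells made from embryonic stem cells over 36 h, were taken before doxycycline. Day 1 cells were aggregates of EpiLCs after 24 h in GK15 medium with 1.5 μg/ml doxycycline, begun from 2000 cells per well. Each line is 1 clone, so the effect of a factor and that of its clone cannot be told apart. All day 1 samples had doxycycline, so its effect and that of aggregation cannot be told apart either. On day 1 Blimp1 (Prdm1) read 6.25 and 6.47 in B and 8.63 and 8.71 in BP14A, against 4.9 and 5.01 in the parental line. Tfap2c read 11.55 and 11.58 in BP14A, but 5.8 and 6.08 in the A line, below the 6.38 and 6.29 of the parental line. Lines without the matching transgene were also higher. Tfap2c read 9.38 and 9.81 in B and 10.7 and 10.91 in P14, and Blimp1 read 7.23 and 7.39 in P14. The readings do not tell a transgene from the cell's own gene. Single-factor below therefore means that a line carries 1 transgene, not that 1 factor alone was raised. Prdm14 read 3.21 and 3.8 in P14 and 3.4 and 4.67 in BP14A, against 3.59 and 3.67 in the parental line. The arrays therefore do not show the Prdm14 transgene in either line that carries it, nor the Tfap2c transgene in A, and whether these probe sets lie within the transgenes was not tested. Lines are called here by their labels. Of 9 measured epiblast markers 9 were above the filter level in all 10 groups, as were 12 of 13 naive markers in every EpiLC group, so these counts do not separate the stages. The Y-linked gene Eif2s3y had a group mean of 9.48 in parental EpiLCs against 1.68 in B, 4.61 in P14, 7.90 in A and 7.26 in BP14A EpiLCs, which differs between lines that are all labelled male. The 2 arrays of a group correlated at Pearson r from 0.966 to 0.976 over all probe sets, which are not independent replicates. The 2 arrays of a group are called biological duplicates in the series description, and their number limits the precision.

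The region before the start of the RefSeq Rhox5 gene model is shown because the silencing of this gene is known to involve methylation of CG dinucleotides, which are in capitals. The window runs from 250 bases before to 50 after the start, from the RefSeq table of build GRCm38.p6, on the plus strand at chrX:37754358-37754657. Rhox13, the other family member that could be read, is shown for comparison, also on the plus strand, at chrX:38120590-38120889.
Rhox5: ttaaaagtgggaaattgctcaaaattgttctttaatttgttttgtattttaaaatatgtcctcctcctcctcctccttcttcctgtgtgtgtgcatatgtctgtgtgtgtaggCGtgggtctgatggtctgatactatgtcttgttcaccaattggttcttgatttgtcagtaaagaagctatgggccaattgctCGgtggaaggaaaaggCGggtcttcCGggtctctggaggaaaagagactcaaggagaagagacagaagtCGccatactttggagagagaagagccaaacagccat
Rhox13: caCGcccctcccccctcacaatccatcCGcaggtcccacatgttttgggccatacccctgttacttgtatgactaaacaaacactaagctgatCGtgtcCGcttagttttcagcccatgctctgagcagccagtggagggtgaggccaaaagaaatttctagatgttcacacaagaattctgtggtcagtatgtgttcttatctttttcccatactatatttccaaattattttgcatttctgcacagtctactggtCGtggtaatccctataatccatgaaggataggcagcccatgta
Each window holds 5 CG dinucleotides, and 62% of the 32851 windows in the table hold as many or more. Over the 28 Rhox windows in the table the count ran from 0 to 12 with a median of 7, which is also the median of all windows. Motifs of the 3 factors were searched on both strands. GGTCTCTAA for Prdm14, AGNGAAAG for Blimp1 and GCCNNNGGC for Tfap2c occurred in 0 of the 28 Rhox windows, and in 0.256%, 8.63% and 16.6% of all windows. Rhox5 has more than 1 known start site, and these data do not tell which of them the cells used. Rhox6 and Rhox9 had no window in the table.

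Rhox5 gave a strong signal in EpiLCs of every line and was lower in every line after 1 day of aggregation. Its 2 arrays read 12.11 and 12.12 in parental EpiLCs, 12.07 and 12.19 in B, 12.13 and 12.18 in P14, 12.16 and 12.33 in A, and 11.94 and 11.93 in BP14A EpiLCs. These 10 values span 11.93 to 12.33. On day 1 the arrays read 9.56 and 9.41 in the parental line, 8.97 and 9.23 in B, 9.7 and 9.97 in P14, 9.34 and 9.53 in A, and 9.42 and 9.4 in BP14A. Day 1 values, 8.97 to 9.97, did not overlap the EpiLC values in any line and stayed above the filter level of 3.95.

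The day 1 difference of Rhox5 from the same line's EpiLCs was −2.63 ± 0.11 (SE, n = 2 arrays in each group) in the parental line, a 6.19-fold lower value. It was −2.52 ± 0.11 in BP14A, −3.03 ± 0.11 in B, −2.32 ± 0.11 in P14 and −2.81 ± 0.11 in A. A gene counts as called here when its adjusted p from limma, a linear model fitted to all 20 arrays, is under 0.05 (Benjamini-Hochberg over 14010 genes) and its log2 difference is at least 1. Rhox5 was called lower in 5 of 5 lines. The background of genes called in either direction was 6.59% in the parental line, 10.6% in BP14A, 9.72% in B, 8.06% in P14 and 6.12% in A, and 0.864% of genes (121) were called lower in all 5. By the mean difference over the 5 lines Rhox5 ranked 21 among the 14010 genes from the largest fall. These ranks and counts describe a gene picked with the values in view.

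**Figure D1:**
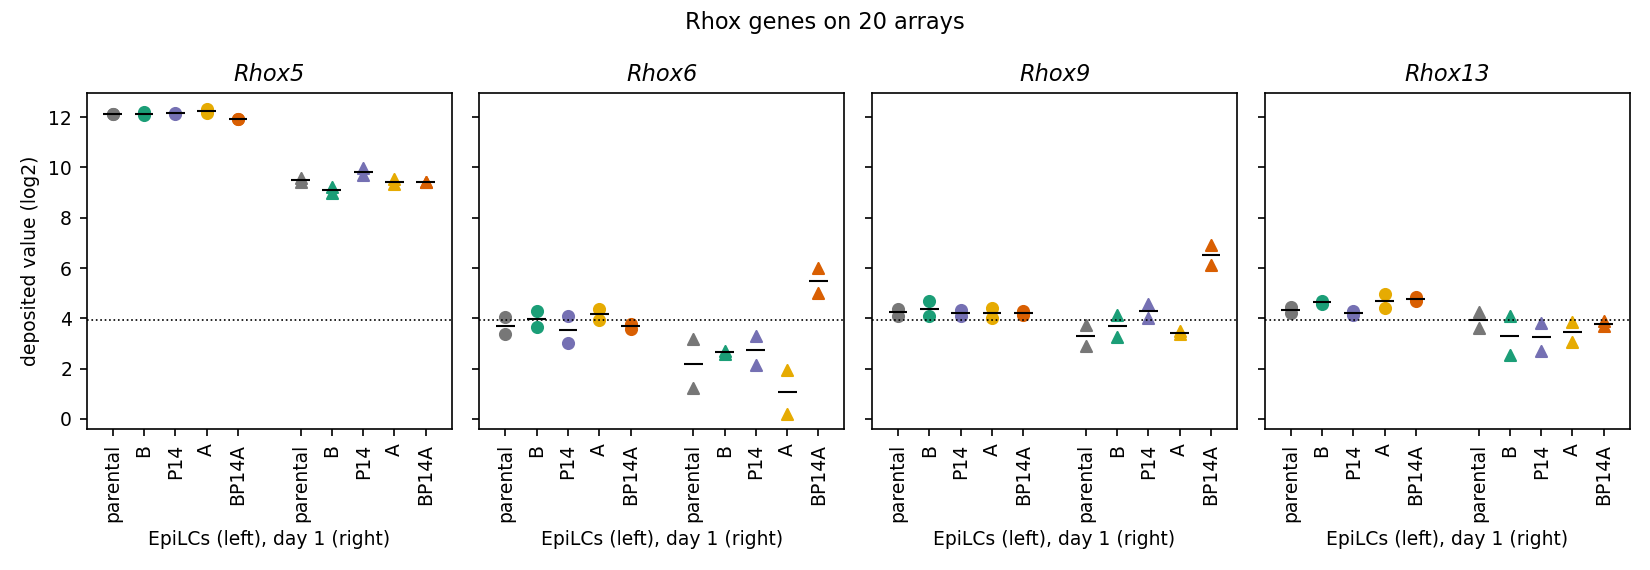
Deposited log2 values of 4 Rhox genes on 20 arrays, by cell line; circles are EpiLCs, triangles day 1 aggregates, each point is 1 array, bars are group means (n = 2) and the dotted line is the filter level of 3.95. Rhox5 lies between 11.93 and 12.33 in EpiLCs and between 8.97 and 9.97 on day 1, while Rhox6 and Rhox9 stand highest in BP14A on day 1.

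Between lines, Rhox5 means at the same stage lay within 0.31 of each other in EpiLCs and within 0.74 on day 1. In EpiLCs the differences from the parental line were −0.18 ± 0.11 (SE) in BP14A, 0.02 ± 0.11 in B, 0.04 ± 0.11 in P14 and 0.13 ± 0.11 in A. Only B overlapped the narrow parental range of 12.11 to 12.12. Differences as large in the same direction were seen in 16.7% of tested genes for BP14A, 34.3% for P14 and 18.3% for A. On day 1 they were −0.08 ± 0.11 in BP14A, −0.39 ± 0.11 in B, 0.35 ± 0.11 in P14 and −0.05 ± 0.11 in A. The B arrays both lay below the parental ones and the P14 arrays both above, while BP14A and A overlapped the parental range. In the order of day 1 means P14 came first at 9.84, followed by the parental line at 9.48, A at 9.44, BP14A at 9.41 and B at 9.1, and of these the parental line overlapped A, and A overlapped BP14A. Rhox5 in BP14A differed by 0.01 ± 0.22 from the sum of the 3 single-factor differences, a contrast added after seeing the data. Rhox5 was called in 0 of 8 line-against-parental comparisons by limma. The background of called genes was 2.6% for B, 5.38% for P14, 0.0286% for A and 6.62% for BP14A on day 1, and 0.0785% for B, 0.0357% for P14, 0.0286% for A and 0.0143% for BP14A in EpiLCs, so that the absence of a call is what nearly every gene showed. All 4 comparisons of a stage share the 2 parental arrays.

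Rhox6 and Rhox9, the placental and gonadal pair, were dim in EpiLCs and stood out in only 1 group, the day 1 aggregates of the BP14A line. In EpiLCs the 10 arrays read 3.02 to 4.37 for Rhox6 with a median of 3.86, and 4.02 to 4.68 for Rhox9 with a median of 4.21, near the filter level. On day 1 Rhox9 read 6.13 and 6.9 in BP14A, against 2.89 and 3.73 in the parental line, 3.27 and 4.12 in B, 4.56 and 4.01 in P14, and 3.5 and 3.37 in A. Both BP14A arrays were above all 18 other arrays for this gene. Rhox6 on day 1 read 5.01 and 5.99 in BP14A, 1.23 and 3.16 in the parental line, 2.72 and 2.57 in B, 2.16 and 3.3 in P14, and 1.93 and 0.21 in A. Here too both BP14A arrays were above the other 18. This separation describes genes picked with the values in view. How many of all genes separate in this way is not given here, so the separation cannot be called rare. The spread between replicates was larger for Rhox6, with a pooled SD of 0.75 against 0.39 for Rhox9 and 0.11 for Rhox5.

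In the BP14A line on day 1 Rhox9 was higher than in the parental line by 3.21 ± 0.36 (SE) on the log2 scale, a 9.22-fold difference, and Rhox6 by 3.31 ± 0.69, or 9.88-fold. The parental means of both, 3.31 and 2.2, lay below the filter level, so the sizes are approximate. With every value below 3.95 raised to that level, an alternative added after seeing the data, the differences were 2.56 for Rhox9 and 1.55 for Rhox6. Both genes were called in this comparison, beside 6.62% of all genes. The call of Rhox6 was lost when only the 4 arrays compared entered the fit. Against the P14 line BP14A was higher by 2.23 ± 0.36 for Rhox9 and by 2.77 ± 0.69 for Rhox6. The excess of BP14A over the sum of the 3 single-factor differences was 1.72 ± 0.72 for Rhox9 and 3.44 ± 1.38 for Rhox6. It ranged from 1.51 to 5.38 for Rhox6 when 1 array was left out. The Rhox6 sum includes −1.13 from A, whose day 1 arrays of 1.93 and 0.21 were far below the filter level. With the floor at 3.95 the excess was 2.15 for Rhox9. For Rhox6 it was 1.55, the same as its floored difference from the parental line. The contrasts of BP14A with P14 and with the sum were added after seeing the data. The order of Rhox9 means was BP14A on day 1 at 6.52, then a run from 4.39 in B EpiLCs to 4.21 in BP14A EpiLCs that overlapped at each step and held P14 day 1 at 4.28, then B, A and parental day 1 cells at 3.69, 3.44 and 3.31. Rhox6 had BP14A on day 1 first at 5.5, and from A EpiLCs at 4.16 down to A day 1 at 1.07 each group overlapped the next.

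The single-factor lines had no called difference from the parental line in any of the 3 genes. Over all genes 2.6% were called in B, 5.38% in P14 and 0.0286% in A on day 1. The absence of a call is therefore what nearly every gene showed. For Rhox9 the P14 line gave 0.98 ± 0.36 (SE), with both arrays above both parental ones, and it became 1.4 and a call without parental day 1 replicate 2. B and A gave 0.39 ± 0.36 and 0.13 ± 0.36, with overlap. For Rhox6 the differences were 0.45 ± 0.69 in B, 0.54 ± 0.69 in P14 and −1.13 ± 0.69 in A, all with overlapping arrays. In EpiLCs the differences of Rhox6 and Rhox9 from the parental line lay between −0.16 and 0.45. None was called, where 0.0143% (BP14A) to 0.0785% (B) of all genes were.

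From EpiLCs to day 1 the 2 genes were higher on both arrays in BP14A, and in no other line. Rhox9 was higher by 2.31 ± 0.36 (SE) in BP14A and was called, and its differences were −0.93 ± 0.36 in the parental line, −0.7 ± 0.36 in B, 0.07 ± 0.36 in P14 and −0.79 ± 0.36 in A. Rhox6 differed by 1.82 ± 0.69 in BP14A, which was not called, by −1.52 ± 0.69 in the parental line, −1.34 ± 0.69 in B, −0.82 ± 0.69 in P14 and −3.09 ± 0.69 in A. With median centring, quantile normalization or an intensity trend the BP14A difference became a call. Of the 5 lines only A was called for Rhox6 in the fit to all arrays, on values of 4.37 and 3.95 before and 1.93 and 0.21 after, at or below the filter level but for 1 array. At the filter level as a floor this difference was −0.21, and without A day 1 replicate 2 it was −2.23 and was not called. With only the 4 arrays compared in the fit, the A line lost its call for Rhox6, and BP14A and B became calls. Without parental day 1 replicate 2 the parental differences became −2.48 for Rhox6 and −1.35 for Rhox9, and both became calls. Rhox5 and the Rhox6 and Rhox9 pair thus differed in BP14A, where the first was lower and the others higher on day 1. Across the 10 group means Rhox6 and Rhox9 had a Pearson r of 0.85, and Rhox5 had 0.42 with Rhox6 and 0.01 with Rhox9, over groups that share lines and stages. Rhox6 and Rhox9 transcripts are alike, and whether each probe set reads only its own gene was not tested.

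**Figure D2:**
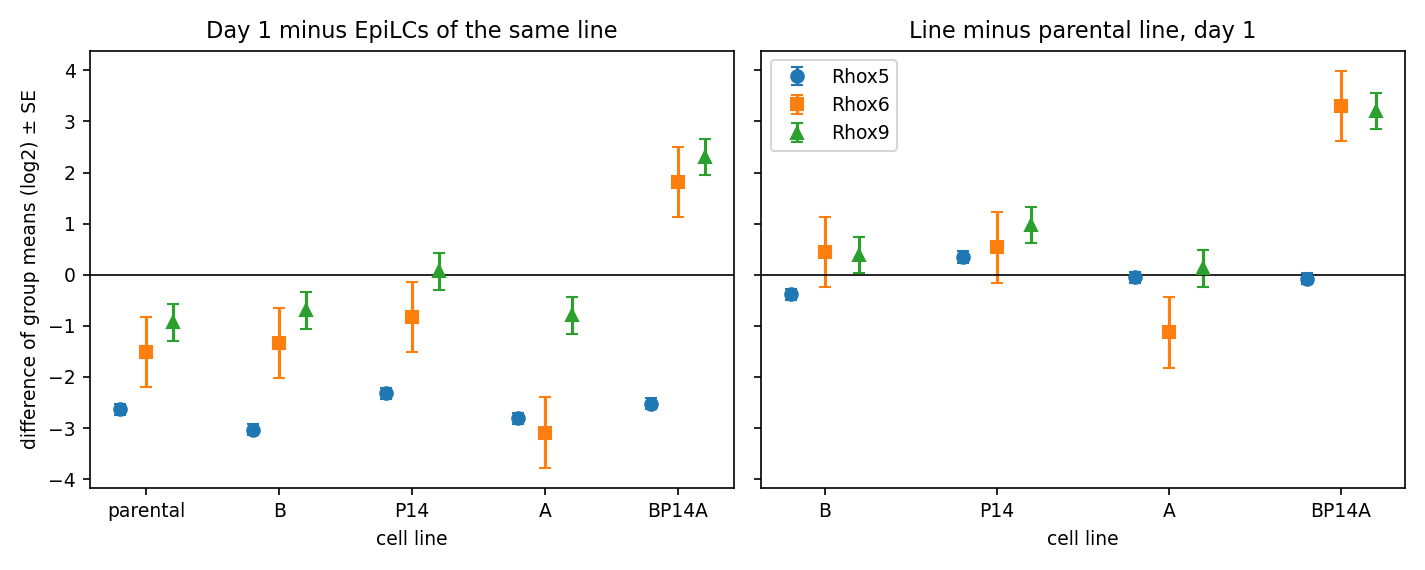
Differences of group means of Rhox5, Rhox6 and Rhox9 on the log2 scale with limma SE (2 arrays in each group), for day 1 minus EpiLCs of the same line (left) and for each line minus the parental line on day 1 (right). Rhox5 lies between −3.03 and −2.32 in all 5 lines on the left, and Rhox6 and Rhox9 lie above 3 for BP14A on the right.

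Rhox13, a testis-specific family member in mouse and not one of the 3 genes, was tested on its own. It read 4.12 to 4.95 over the 10 EpiLC arrays and 2.53 to 4.25 on day 1, so that it too was dim. Rhox13 was called in 1 of 13 comparisons, B day 1 against B EpiLCs, by −1.32 ± 0.47 (SE, limma adjusted p = 0.0397), and the day 1 arrays, 2.53 and 4.1, were below both EpiLC arrays. Without B day 1 replicate 1 the difference was −0.54 and was not called. In the other lines the same difference was −0.42 (adjusted p = 0.55) in the parental line, −0.96 (adjusted p = 0.127) in BP14A, −0.94 (adjusted p = 0.151) in P14 and −1.24 (adjusted p = 0.0639) in A, all by limma. In BP14A against the parental line on day 1 it differed by −0.14 ± 0.47 (limma adjusted p = 0.873), with overlapping arrays.

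The genes on either side of the cluster were read to see whether the stretch of chromosome moved as a whole. The 15 nearest tested protein-coding genes on each side gave 30 genes, with median day 1 differences from EpiLCs between −0.05 and 0.03 over the 5 lines, against 0.02 to 0.06 for all genes. Lamp2, a lysosomal membrane protein gene after the cluster, rose in 5 of 5 lines, by 1.45 ± 0.09 (SE, limma adjusted p = 3.61e-07) in the parental line. Dcaf12l1 likewise rose in 5 of 5 lines, by 1.84 ± 0.12 (limma adjusted p = 4.89e-07) in the parental line. Septin6, a cytoskeletal GTPase gene before the cluster, fell in BP14A and P14, by 1.38 and 1.12, and no flanking gene was called lower in the other 3 lines. Against the parental line on day 1, 1 of 30 flanking genes was called in BP14A, Septin6 at −1.26 ± 0.13 (limma adjusted p = 1.92e-05), and 0 in B, P14 and A. In P14 Septin6 gave −0.99. With the mean over a gene's probe sets in place of the brightest, 0 flanking genes were called in BP14A. In BP14A the median of the 30 genes was 0.02, in the comparison where Rhox6 and Rhox9 were higher by over 3. Over all 478 tested X-linked genes the medians of the 13 comparisons lay between −0.09 and 0.12. Of these genes, 9.41% were called from EpiLCs to day 1 in the parental line and 15.9% in BP14A. The shares were 15.1% in B, 11.7% in P14 and 8.79% in A, and in every line above that of all genes. Against the parental line on day 1 they were 9.62% in BP14A, 3.77% in B, 7.53% in P14 and 0 in A. Over all genes these were 6.62%, 2.6%, 5.38% and 0.0286%.

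**Figure D3:**
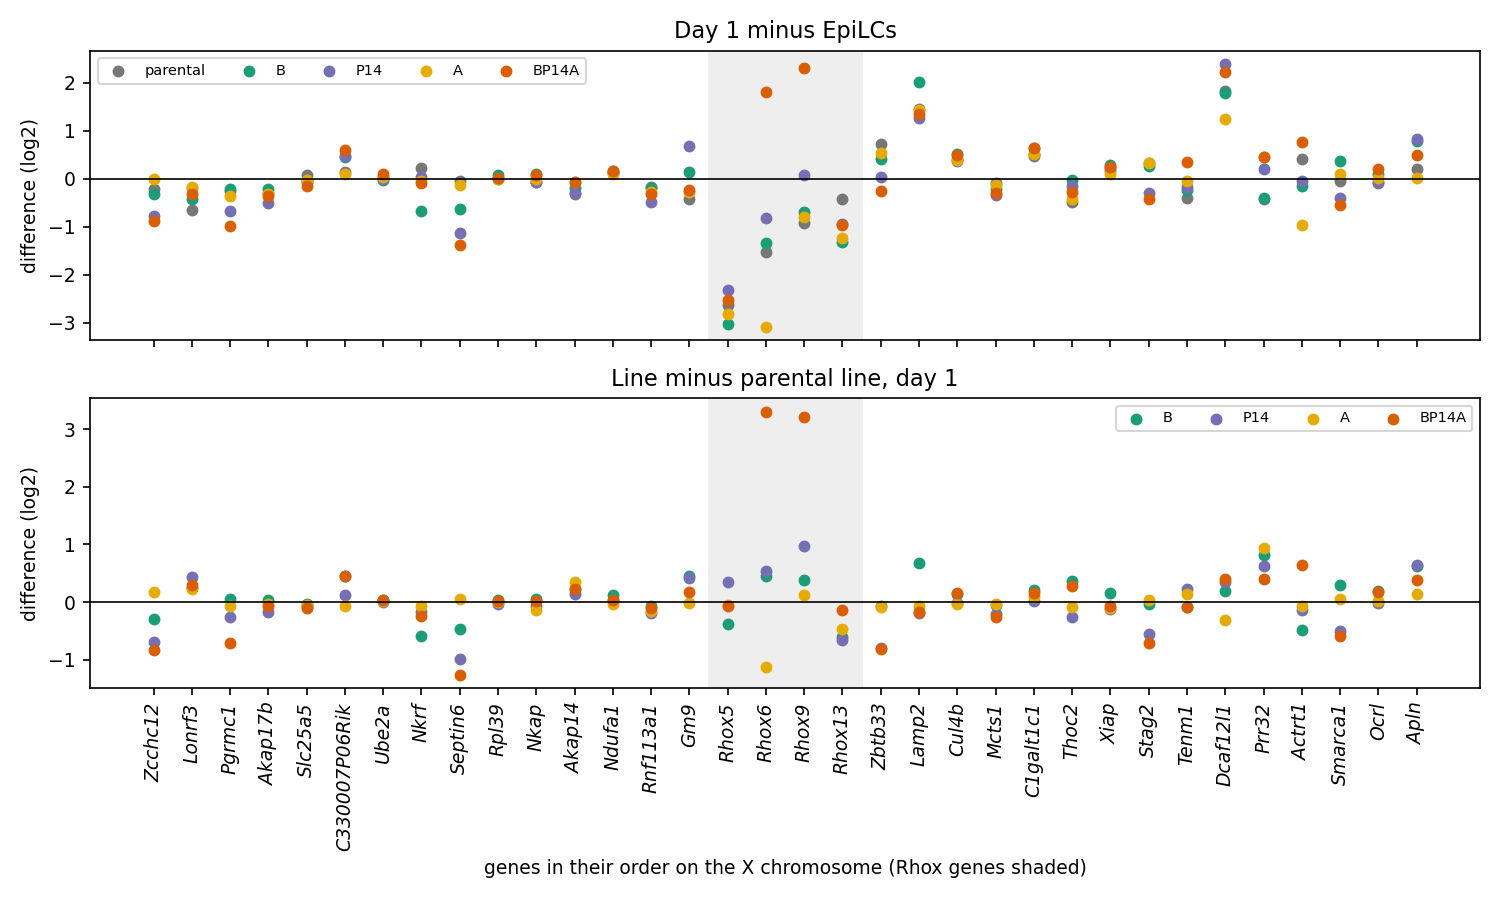
Log2 differences of 4 Rhox genes (shaded) and of the 15 nearest tested genes on each side, in their order on the X chromosome, for day 1 minus EpiLCs in 5 lines (top) and for 4 lines minus the parental line on day 1 (bottom); each point is 1 gene in 1 line. Rhox5 is the lowest Rhox gene in 4 of 5 lines at the top, and Rhox6 and Rhox9 in BP14A are the highest points at the bottom.

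Germline genes known to be kept silent by promoter methylation in somatic cells were also lower on day 1 in the parental line, and several of them changed less in the BP14A and P14 lines. Of 14 such genes tested, 8 fell and 0 rose in the parental line from EpiLCs to day 1, with a median of −1.15 against 0.05 over all genes. Hormad1, a meiotic chromosome axis protein, fell by 3.63 ± 0.3 (SE, limma adjusted p = 3.11e-06) there, Tex19.1, which restrains transposons in germ cells, by 1.72 ± 0.15 (adjusted p = 5.07e-06), Zfp42 by 1.57 ± 0.14 (adjusted p = 5.3e-06) and Dazl, a germ cell RNA-binding protein, by 1.52 ± 0.14 (adjusted p = 7.39e-06). In A 8 fell, in B 7 fell (4 without B day 1 replicate 1), in BP14A 3 fell (Hormad1, Mael and Tex19.1), and in P14 1 fell (Hormad1) and 1 rose (Sycp3). The list medians were −1.36 in A, −1.01 in B, −0.08 in BP14A and −0.18 in P14, beside Rhox5 differences of −2.81, −3.03, −2.52 and −2.32. The test of the difference between a line's change and the parental change called 4 of the 14 genes in BP14A (Dazl, Hormad1, Stk31 and Zfp42), 3 in P14 (Dazl, Hormad1 and Zfp42) and 0 in B and A, by limma. In each call the line's change lay above the parental change, which was a fall. Over all genes this test called 6.95% in BP14A, 4.55% in P14, 2.4% in B and 0 in A. The absence of calls in A is thus not particular to these genes. Hormad1 was the only one of the 14 called lower in all 5 lines. Zfp42, on this list, also belongs to the naive pluripotency markers.

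Set directly against the parental line on day 1, 4 of the 14 germline genes were higher in BP14A and 0 lower. Zfp42 rose by 1.84 ± 0.14 (SE, limma adjusted p = 1.01e-06), Hormad1 by 1.43 ± 0.3 (adjusted p = 0.00344), Stk31 by 1.06 ± 0.19 (adjusted p = 0.00132) and Dazl by 1.05 ± 0.14 (adjusted p = 0.000121). In P14 3 were higher, Zfp42 by 1.62, Hormad1 by 1.61 and Tex19.1 by 1.14, in B 1 was lower, Sycp3 at −1.03, and in A 0 were called by limma. Over all genes 6.62% were called in BP14A, 5.38% in P14, 2.6% in B and 0.0286% in A. The absence of calls in A is what nearly every gene showed. With the mean over a gene's probe sets in place of the brightest, 2 of the 14 were called in BP14A. The Rhox5 differences in the same comparisons were −0.08 in BP14A, 0.35 in P14, −0.39 in B and −0.05 in A.

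**Figure D4:**
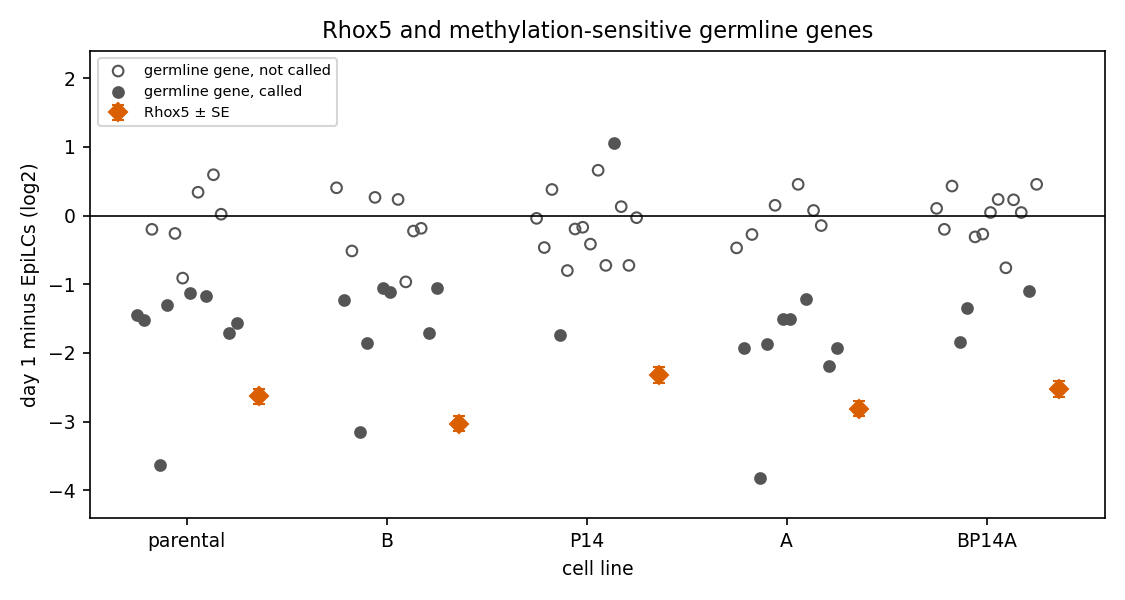
Day 1 minus EpiLC differences (log2) of 14 methylation-sensitive germline genes in 5 lines, filled where called by limma, with Rhox5 and its SE beside them; each point is 1 gene. Called germline genes number 8 in the parental line, 7 in B, 2 in P14, 8 in A and 3 in BP14A, while Rhox5 lies between −3.03 and −2.32.

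Genes of the DNA methylation machinery changed differently by line. Dnmt3l, a cofactor of de novo methylation, fell in all 5 lines, by 3.5 ± 0.27 (SE, limma adjusted p = 1.91e-06) in the parental line, and Dnmt3a fell in all 5, by 1.22 in the parental line, 1.23 in A, 1.06 in P14, 2.51 in BP14A and 3.2 in B. Dnmt3b, a de novo DNA methyltransferase, differed by −0.02 in the parental line and fell by 3.44 in BP14A and 2.15 in P14. Against the parental line on day 1 Dnmt3b was lower in BP14A at −3.34 ± 0.1 (adjusted p = 9.02e-10) and in P14 at −2.07 ± 0.1 (adjusted p = 5.23e-08), both by limma. Dnmt3a was lower in B at −2.18 ± 0.26 (limma adjusted p = 0.000179) and in BP14A at −1.27 ± 0.26 (limma adjusted p = 0.00311). Both Dnmt3a and Dnmt3b were called lower than in the parental line in BP14A. DNA methylation itself was not measured, and any link of these enzymes to the Rhox values was not tested. Of 19 such enzymes and cofactors tested, 2 were called in BP14A, both lower, 1 in P14, also lower, and 2 in B, where the methyl-CG binding protein Mbd2 was higher by 1.15. Over all genes 6.62% were called in BP14A, 5.38% in P14 and 2.6% in B. By the mean over a gene's probe sets, 1 gene was called in BP14A and 1 in B, and with only the arrays compared 0 were called in B.

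Markers of other cells that make Rhox genes were read beside these results. Of 12 trophoblast markers tested, 1 was higher in BP14A than in the parental line on day 1, Tead4 by 1.48 ± 0.44 (SE, limma adjusted p = 0.0244), and 2 were lower, Krt18 at −1.75 and Krt8 at −1.26. Ascl2, a trophoblast regulator, fell from EpiLCs to day 1 in 5 of 5 lines, by 2.31 in the parental line and 1.72 in BP14A. The mean log2 level of the 12 lay between 5.45 and 5.56 on the BP14A arrays and between 5.57 and 5.59 on the parental ones. Cdx2, which defines trophoblast, read 3.3 in BP14A and 3.5 in the parental line, below the filter level in both. Of 13 extraembryonic endoderm markers 0 were higher and 1, Foxa2, was lower in BP14A at −1.17, and the mean of the 13 lay between 5.31 and 5.36 against 5.35 and 5.41. Gata4 and Gata6 were below the filter level in both groups, at 3.78 and 3.82 in BP14A and 3.74 and 3.82 in the parental line. Of 7 fibroblast or feeder markers 0 were higher and 2, Thy1 and Dcn, were lower, at −3.04 and −1.06. Of 9 epiblast markers 6 were lower in BP14A, with a list median of −1.75. The part of these markers in the Rhox values was not tested. Naive embryonic stem cell markers, such as Dppa3 and Tcl1, were higher in 9 of 13 cases in BP14A, 10 in P14, 5 in B and 0 in A, with list medians of 1.95, 1.99, 0.37 and −0.2. Over all genes 6.62%, 5.38%, 2.6% and 0.0286% were called against the parental line on day 1, in the same order of lines. These bulk values cannot tell a change in the number of cells that express a gene from a change in its RNA per cell.

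The genes whose 10 group means ran most like those of each Rhox gene were picked from 3841 tested genes with a span of at least 1 log2 unit over the groups. For Rhox5 they were Rnf225 (r = 0.995), S1pr3 (r = 0.995), Zfp141 (r = 0.993) and Plod2 (r = 0.991), and each was lower on day 1, as S1pr3 with 5.41 in parental EpiLCs and 3 on day 1. For Rhox9 they were Casz1 (r = 0.98), Ptpn6 (r = 0.971), Sox15 (r = 0.954) and Capsl (r = 0.937). Casz1 stood at 5.25 in the parental line and 6.81 in BP14A on day 1, and Sox15, a Sox family gene of embryonic stem cells, at 5.75 and 7.37. For Rhox6 they were Mbnl3 (r = 0.944), Arid5a (r = 0.922), Gdf3 (r = 0.915) and Ptgs2 (r = 0.914). The lists of Rhox6 and Rhox9 share 0 names. These correlations describe 10 means that share lines and stages.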

How the data were processed

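RNA of 20 samples, 2 for each of 5 cell lines at 2 stages, was read on Affymetrix mouse arrays. The authors deposited 1 value per probe set and array, and the log2 scale was inferred from their range of 0 to 13.83. Their summarisation and normalization, not given in the sources used here, stayed as deposited. Probe sets with 1 gene symbol were kept (34945), a gene was read by its brightest probe set, and genes whose highest group mean lay under the 40th percentile (3.95) were left out, which left 14010. limma 3.58.1 in R 4.3.3 (lmFit and eBayes) fitted 10 group means to all 20 arrays, without a replicate block, and was tested on simulated data. A call needed an adjusted p under 0.05 and a log2 difference of at least 1. The genes described and the gene lists were chosen with earlier results of these data known. Named from each list were the called genes, at most the 4 largest differences in a comparison, beside the 3 factors, the defining markers Cdx2, Gata4 and Gata6, and Dnmt3b in the parental line, which fall outside that rule. Correlations of same-numbered replicates' deviations lay between −0.06 and 0.2 over 45 pairs of groups.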

Additional observations from a re-analysis of the deposited data

Results flagged for a closer look

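The change from EpiLCs to day 1 differed between lines for several genes, given here as the line's change minus the parental change on the log2 scale. For Rhox6 it was 3.33 and for Rhox9 3.23 in BP14A, because every BP14A array moved up and every parental array down; these 2 values are a description and no test is given for them, since the genes were chosen with their values known. For the other genes the limma interaction passed both limits of a call. In BP14A the values were 2.02 for Zfp42, 1.79 for Hormad1, 1.31 for Dazl, 1.18 for Stk31, −1.29 for Dnmt3a, −3.42 for Dnmt3b and −1.32 for Septin6. In P14 they were 1.9 for Hormad1, 1.53 for Zfp42, 1.05 for Dazl, 1.1 for Gm9 (the nearest tested gene before the cluster), −2.12 for Dnmt3b and −1.07 for Septin6. In B they were −1.99 for Dnmt3a and 1.16 for Mbd2.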

How the results depend on the processing

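No difference changed direction among those called. With 1 array left out at a time, Rhox5 ran from −0.52 to −0.26 for B and 0.21 to 0.48 for P14 against the parental line on day 1, from −3.16 to −2.9 for the B and −2.46 to −2.19 for the P14 change from EpiLCs, from −0.56 to −0.29 for BP14A minus P14 and −0.14 to 0.16 for BP14A minus the sum of the single factors. Rhox6 against the parental line on day 1 ran from 2.34 to 4.27 in BP14A, −0.52 to 1.42 in B, −0.43 to 1.5 in P14 and −2.09 to −0.16 in A; its change from EpiLCs from −2.48 to −0.55 in the parental line and −3.95 to −2.23 in A; the BP14A change minus the parental from 2.37 to 4.3; and BP14A minus the sum from 1.51 to 5.38. Rhox9 against the parental line ran from 2.79 to 3.62 in BP14A, −0.04 to 0.81 in B, 0.56 to 1.4 in P14 and −0.29 to 0.55 in A; its change from −1.35 to −0.51 in the parental line and −1.12 to −0.27 in B; the BP14A change minus the parental from 2.81 to 3.66; and BP14A minus the sum from 0.88 to 2.56. Rhox13 in B ran from −2.11 to −0.54.

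With values raised to the filter level, chosen after seeing the data, Rhox6 was 1.55 for BP14A and 0 for A against the parental line, −0.045 in the parental line, −0.18 in B, −0.07 in P14 and −0.21 in A for the change from EpiLCs, 1.59 for the BP14A change minus the parental, and 1.55 for both BP14A minus P14 and BP14A minus the sum. Rhox9 was 2.56 for BP14A and 0.34 for P14 against the parental line, −0.29 in the parental line and −0.28 in A for the change, 2.6 for the BP14A change minus the parental and 2.15 for BP14A minus the sum. All of these lay closer to 0 than without the floor, except the last, which was 1.72 without it. Calls of Rhox6 changed in 4 comparisons with only the arrays compared, and in 1 with median centring, quantile normalization or an intensity trend. With the filter set at the 60th percentile Rhox6, whose highest group mean was 5.5, was no longer among the tested genes. Rhox5 stayed and kept its calls. Rhox9 stayed only through BP14A on day 1, at 6.52, since its next highest group mean was 4.39. That its calls were unchanged therefore adds no support for them. Rhox13 in B, −1.32, was not called with no filter or with only the arrays compared. With replicate number as a block, Rhox13 in A, −1.24, became a call, as with an intensity trend; the cause was not tested. Whether same-numbered arrays share more than a label was not tested. Correlations of their deviations lay between −0.06 and 0.2 over 45 pairs of groups, with a median of 0.02. BP14A against the parental line in EpiLCs gave 1 call with the block against 2. Over all genes, B against the parental line on day 1 gave 142 calls with only the arrays compared against 364. Rhox6 and Rhox9 lie near the dim end of the arrays, which limits the size of their differences.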

Other observations

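Nuclear receptors that can act on Rhox5 in other tissues gave 0 calls of 4 tested against the parental line on day 1 in every line. Between 0.0286% (A) and 6.62% (BP14A) of all genes were called there. Pgr rose by 1.07 from EpiLCs to day 1 in B. Among 10 other placental, germ cell or sex-linked genes tested, Nrk, an X-linked kinase gene of the placenta, was higher than in the parental line on day 1 by 2.72 ± 0.21 (SE, limma adjusted p = 5.28e-06) in B and by 1.65 ± 0.21 (limma adjusted p = 7.12e-05) in BP14A. The Y-linked Eif2s3y was lower in all 4 lines, at −8.29 in B, −6.99 in P14, −2.77 in BP14A and −2.02 in A, and Uty was lower in B at −6.17 and in P14 at −4.21.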
